A study of Homo sapiens with 2 samples.

Results

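The genes of tRNA modification and processing enzymes were described in CLIP-seq libraries of hTrmt13, the product of TRMT13, a methyltransferase related to the yeast enzyme Trm13 that modifies a ribose in tRNA. In CLIP-seq, RNA crosslinked to a protein is isolated with an antibody to that protein and sequenced. The members were 42 genes, taken as the protein-coding rows of the count tables with a listed symbol, out of 20285 nuclear protein-coding genes. All 42 were found, TRMT13 itself among them, and they lie on 21 chromosomes. There was 1 group, hTrmt13 CLIP in cells labelled MDA-MB-231, an established human breast carcinoma line, with 2 replicates and no input or antibody control library analysed here. The labels name no treatment, genotype change or time point. A level below therefore describes how much RNA of a gene was recovered, not binding above a background, and more hTrmt13 contact and more RNA in the cells cannot be told apart.

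Transfer RNAs are cut out of longer precursors, receive a CCA tail at their 3′ end, and are chemically modified at many bases and riboses. Methyltransferases add methyl groups, pseudouridine synthases turn uridine into pseudouridine, deaminases turn adenosine into inosine, and enzymes of the wobble position thiolate or extend the uridine that reads the last codon base. The series' stated aim for this assay concerned the tRNAs that hTrmt13 binds, whereas the values here concern the transcripts that encode the enzymes of the same pathway.

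The libraries held 27907799 and 20590398 counts of the first read mate (R1) in replicates 1 and 2, and 11246823 and 8793089 of the second mate (R2). Values are from R1 unless stated, and CPM (counts scaled to a library total of 1e6) use the total of all features. Nuclear protein-coding genes that overlap no tRNA feature held 5.39% of R1 counts in replicate 1 and 10.6% in replicate 2. The CPM of a typical protein-coding gene therefore differed about as much between the libraries. For this reason values are also given with these protein-coding counts (1503358 and 2186480) as the total, called protein-coding CPM. Nothing in the labels states that the replicates were separate cultures, and the SD may therefore be a technical spread. Intervals cover counting error only.

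Counts of marker genes are given beside the cell line label. They describe RNA recovered by CLIP without an input library and cannot test cell identity. VIM, the mesenchymal filament gene vimentin, had 382 and 722 counts and MSN, the membrane linker moesin, had 203 and 321. The other 8 of the 10 MDA-MB-231 markers lay below the median of all nuclear protein-coding genes, 1.50 CPM. CD44, a surface receptor that marks this line, had 12 and 7 counts, ANXA1 had 0 and 3, and S100A4 had 0 and 1. Of 8 luminal or epithelial breast genes, ERBB2 had 114 and 201 counts and CDH1 had 40 and 51, and 3 of the 8 lay above the protein-coding median. Of 8 genes of blood, liver and neurons, CD3E and ALB had 0 counts in both libraries, which allows up to 0.107 CPM in replicate 1 and 0.146 CPM in replicate 2, while the neuronal gene RBFOX3 had 24 and 54. These counts are not scaled to span, which is 427 kb for RBFOX3, 93.5 kb for CD44 and 6.52 kb for S100A4. Most defining markers of the labelled line were thus recovered at low counts or near 0 in both libraries. What part this has in the values below was not tested.

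The 42 genes were recovered at low counts in both libraries. Together they held 2501 R1 counts in replicate 1 and 3890 in replicate 2. That is 89.6 CPM (exact Clopper-Pearson 95% interval 86.1 to 93.2) in replicate 1 and 188.9 CPM (183.0 to 195.0) in replicate 2, or 139 ± 70.2 CPM (SD, n = 2). In protein-coding CPM the sums were 1664 and 1779, or 1721 ± 81.7 (SD, n = 2), so most of the spread in CPM was shared with protein-coding genes as a class. All 42 had counts in both libraries, with a median of 46 and 71.5, against 25 and 42 over all nuclear protein-coding genes, of which 3712 and 2915 had none. The median member stood at 2.56 CPM and the median protein-coding gene at 1.50 CPM. Of the 42 members, 33 lay above that median, where 50% of all protein-coding genes do by definition. The lead rested on protein-coding genes with few or no counts: among genes with a mean count of at least 10, which 41 members and 65.1% of protein-coding genes reached, only 16 members lay above the median.

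**Figure D1:**
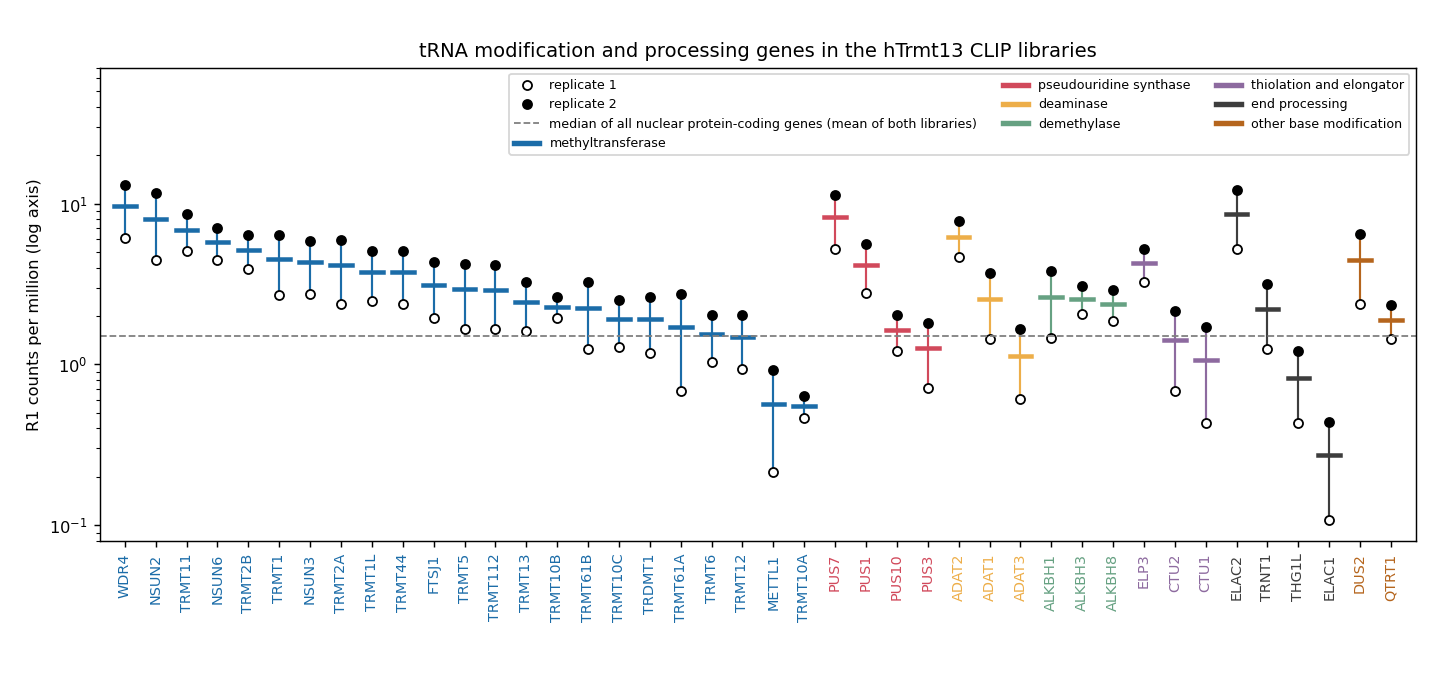
R1 CPM of the 42 genes on a log axis, grouped by role and ordered by mean, with open circles for replicate 1, filled circles for replicate 2, a thick bar for the mean of both and a dashed line at the median of all nuclear protein-coding genes, 1.50 CPM. Replicate 2 is higher for all 42 genes, and the means run from 9.62 CPM for WDR4 down to 0.272 CPM for ELAC1.

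WDR4, ELAC2, PUS7, NSUN2 and TRMT11 were the 5 highest members by CPM and together held 29.8% of the summed CPM, while 11 members held at least 50% of it. Means ranged 35.3-fold from highest to lowest. The counts of the members were in nearly the same order in both libraries, with Spearman's rho of 0.949 across 42 genes, which share both libraries and are not independent replicates.

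TRMT13 encodes the enzyme that the antibody was directed to. It lies on chromosome 1 from 100598706 to 100616053 on the plus strand (hg19, ENSG00000122435.9_2). It had 45 R1 counts in replicate 1 and 67 in replicate 2, and 42 and 55 R2 counts. These are 1.61 CPM (95% interval 1.18 to 2.16) and 3.25 CPM (2.52 to 4.13), or 29.9 and 30.6 protein-coding CPM, so the libraries were close on the second scale. Its mean of 2.43 ± 1.16 CPM (SD, n = 2) stood at percentile 59.4 of nuclear protein-coding genes and in the middle of the members. Its span overlaps LRRC39 on the other strand over 2049 bases, and LRRC39 had 24 and 27 counts, so up to 53.3% and 40.3% of the TRMT13 count could be shared.

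The methyltransferase group held 23 genes, cofactors included, and 58.6% and 58.5% of the members' counts while making up 54.8% of the members. WDR4, the noncatalytic partner of METTL1 in the enzyme that methylates guanosine in the variable loop, had 171 and 270 counts. It was the highest member at 9.62 ± 4.94 CPM (SD, n = 2) and at 113.7 and 123.5 protein-coding CPM. NSUN2, which methylates cytosines in many tRNAs, had 124 and 239 counts, or 8.03 ± 5.07 CPM (SD, n = 2). Both spans (WDR4 on chromosome 21, 44263204 to 44299678; NSUN2 on chromosome 5, 6599352 to 6633404; both on the minus strand) overlap no other listed gene. TRMT10A, a guanosine methyltransferase, was the lowest of the group by mean CPM with 13 counts in each library, or 0.549 ± 0.117 CPM (SD, n = 2).

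Other methyltransferase genes fell between these. TRMT11, which methylates guanosine together with its activator TRMT112, had 142 and 178 counts, and TRMT112 had 46 and 85. NSUN6, which acts on cytosine in the acceptor stem, had 124 and 145. The uridine methyltransferase genes TRMT2A and TRMT2B, for the cytosol and the mitochondrion, had 66 and 122 counts and 110 and 131 counts. TRMT2B over TRMT2A was 1.63 and 1.05 per kb of exon but 0.215 and 0.139 per kb of span, so their order depended on the length used. TRMT1, which dimethylates guanosine, had 75 and 132 counts, and its relative TRMT1L had 69 and 104. FTSJ1, a ribose methyltransferase of the anticodon loop, had 54 and 89. TRMT5, which methylates the guanosine next to the anticodon, had 46 and 87. The subunits of the adenosine methyltransferase, TRMT6 (noncatalytic) and TRMT61A (catalytic), had 29 and 42 counts and 19 and 56 counts. TRMT61A thus had fewer counts than TRMT6 in replicate 1 and more in replicate 2, so their order was not stable between libraries. TRMT10C, a methyltransferase that is also a subunit of mitochondrial ribonuclease P, had 36 and 52, and NSUN3, which modifies mitochondrial methionine tRNA, had 76 and 121. TRDMT1, which methylates aspartate tRNA, had 33 and 54 counts. The mitochondrial adenosine methyltransferase gene TRMT61B had 35 and 67, and TRMT12, an enzyme of wybutosine synthesis, had 26 and 42. TRMT44, whose yeast relative methylates a ribose of serine tRNA, had 66 and 105. TRMT10B, a relative of TRMT10A, had 54 in each library, so TRMT10A and TRMT10B had equal counts in both libraries while each of the other 40 members had more in replicate 2. METTL1, the catalytic partner of WDR4, had 6 and 19 counts, the lowest of the group in replicate 1. In mean protein-coding CPM METTL1 was the lowest of the group, at 6.34 against 7.30 for TRMT10A, so the lowest place depended on the scale.

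Pseudouridine synthase genes held 11.04% and 10.98% of the members' counts with 4 genes. PUS7 (chromosome 7, 105080108 to 105162714, minus strand) had 145 and 233 counts, or 8.26 ± 4.33 CPM (SD, n = 2). PUS1, which acts in the nucleus and the mitochondrion, had 77 and 115 counts, or 4.17 ± 2.00 CPM. PUS10 had 34 and 42 counts. PUS3 was lowest with 20 and 37 counts, or 1.26 ± 0.764 CPM (SD, n = 2).

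Among the deaminases, ADAT2, the catalytic subunit of the enzyme that makes wobble inosine, had 130 and 160 counts, or 6.21 ± 2.20 CPM (SD, n = 2). Its partner subunit ADAT3 had 17 and 34 counts, or 1.13 ± 0.737 CPM, and ADAT1, which deaminates alanine tRNA, had 40 and 76, or 2.56 ± 1.60 CPM (SD, n = 2 each). Per kilobase of span ADAT2 stood at 0.223 CPM per kb, ADAT3 at 0.140 and ADAT1 at 0.0973. Per kilobase of exon, with lengths described below, the values were 0.866, 0.505 and 0.571 in the same order. ADAT2 thus led on each scale. ADAT1 lay above ADAT3 in CPM and per kb of exon but below it per kb of span. A ribosomal 5S copy on the other strand inside ADAT2, RNA5SP221, held 13 and 5 counts, a small part of the ADAT2 count.

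The AlkB-family genes ALKBH1, ALKBH3 and ALKBH8 stood close together. ALKBH1, a tRNA demethylase, had 41 and 78 counts, or 2.63 ± 1.64 CPM. ALKBH3, also a demethylase, had 57 and 63, or 2.55 ± 0.719 CPM. ALKBH8, which despite its family completes wobble uridine modification with a methyltransferase domain, had 52 and 60, or 2.39 ± 0.743 CPM (SD, n = 2 each). ALKBH1 was the lowest of these in replicate 1 and the highest in replicate 2, so their order was not resolved. Per the labels' protocols, AlkB-type enzymes were also used as reagents on the recovered RNA before ligation, which is separate from these counts of human genes.

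In the group that builds the modified wobble uridine, ELP3, the catalytic subunit of Elongator, had 91 and 108 counts, or 4.25 ± 1.40 CPM (SD, n = 2). The thiolation enzymes CTU2 and CTU1 had 19 and 44 counts and 12 and 35 counts, or 1.41 ± 1.03 and 1.06 ± 0.898 CPM (SD, n = 2 each). ELP3 had more counts than either in each library, but per kilobase of span it was lower, at 0.0419 CPM per kb against 0.158 for CTU2 and 0.0989 for CTU1. Per kilobase of exon, with lengths described below, ELP3 was higher, at 0.789 CPM per kb against 0.399 for CTU2 and 0.510 for CTU1. Of the end-processing genes, ELAC2, which removes the 3′ trailer of tRNA precursors in the nucleus and the mitochondrion, had 145 and 250 counts, or 8.67 ± 4.91 CPM (SD, n = 2; chromosome 17, 12895708 to 12921504, minus strand). TRNT1, which adds the CCA tail, had 35 and 65 counts, or 2.21 ± 1.35 CPM. THG1L, which adds guanosine to histidine tRNA, had 12 and 25. ELAC1, the short form of the trailer-cutting enzyme, had 3 and 9 counts and was the lowest member, at 0.107 CPM (95% interval 0.0222 to 0.314) in replicate 1 and 0.437 CPM (0.200 to 0.830) in replicate 2. The 95% intervals of ELAC2, 4.38 to 6.11 CPM in replicate 1 and 10.7 to 13.7 CPM in replicate 2, did not overlap those of ELAC1. By number alone, all ELAC1 counts could be shared with an overlapping gene, described below. DUS2, a dihydrouridine synthase, had 66 and 134 counts, or 4.44 ± 2.93 CPM, and QTRT1, the catalytic subunit that inserts the queuosine base, had 40 and 48, or 1.88 ± 0.635 CPM (SD, n = 2 each).

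Levels of different genes can be compared only per length, and the result depended on which length was used. The listed spans hold introns, whereas merged exon lengths came from GENCODE release 29 for all 42 members and join the exons of all transcripts of a gene. Per kilobase of span, TRMT112 led at 1.78 ± 1.08 CPM per kb, followed by TRMT2A at 0.750 ± 0.455 and TRMT10C at 0.416 ± 0.191 (SD, n = 2 each). With the counts of overlapping features taken off, TRMT112 fell to 0.641 CPM, against 2.89 as counted, and TRMT2A to 0, against 4.15, so both leading places could rest on shared counts. Per kilobase of merged exon, WDR4 led at 3.51 ± 1.80 CPM per kb, followed by PUS7 at 1.87 ± 0.979, TRMT112 at 1.78 ± 1.08 and NSUN6 at 1.64 ± 0.525 (SD, n = 2 each). The merged exon length of TRMT112 equals its span, 1.625 kb, so its value is the same on both scales. ELAC1 was lowest on both scales, at 0.0135 ± 0.0116 CPM per kb of span and 0.0686 ± 0.0587 per kb of exon (SD, n = 2). On each of these 2 scales 36 of 42 members lay above the protein-coding median, against 50% of all genes. Genes with few or no counts are part of these medians, and neither scale was taken with a minimum count. The median of the members was 0.118 CPM per kb of span, against 0.0447 for protein-coding genes. Per kb of exon it was 0.744 for the members, against 0.348 for protein-coding genes. Across the 42 members, Spearman's rho of CPM was 0.529 with span and 0.405 with exon length. Over 13117 protein-coding genes with a mean count of at least 10 and an exon length, rho was 0.369 and 0.358. These are descriptions across genes that share both libraries.

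**Figure D2:**
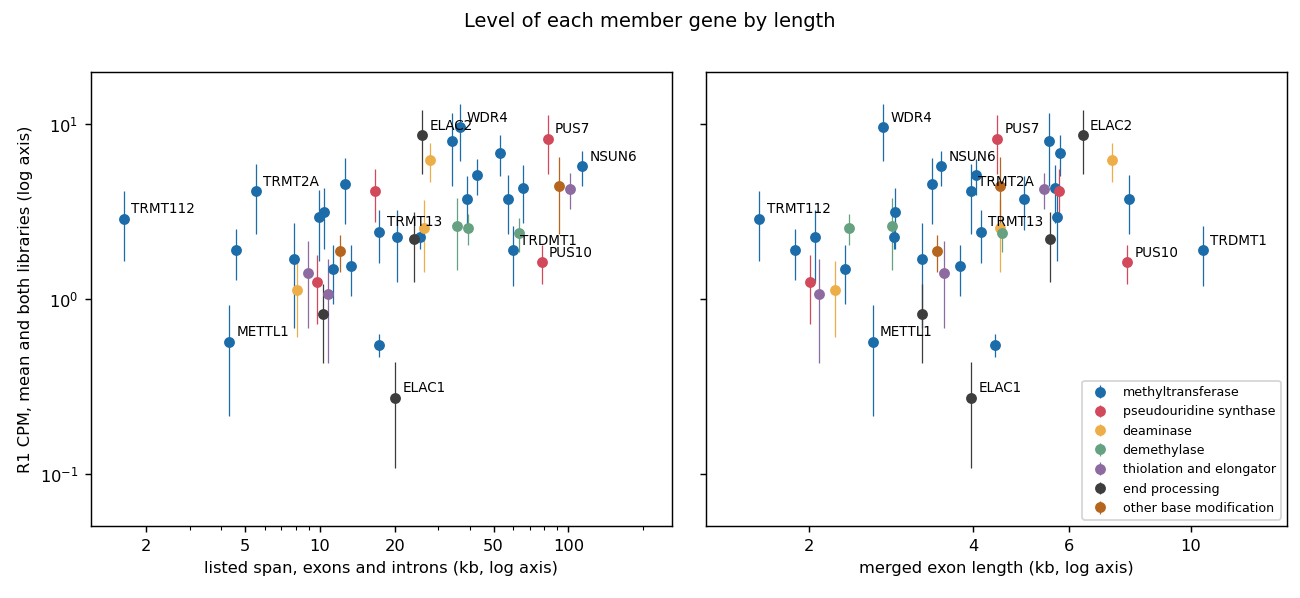
Mean R1 CPM of each member on a log axis against its listed span (left) and its merged exon length (right) in kb on log axes, with vertical lines that reach the values of both libraries. The short-span genes TRMT112 and TRMT2A, whose counts could be largely or wholly shared with overlapping genes, stand above others of like span, and WDR4 stands highest for its exon length.

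Subunits of one enzyme were compared per length in 4 pairs, of which WDR4 with METTL1 and ADAT2 with ADAT3 kept their order in both libraries on both lengths. Per kilobase of exon, WDR4 stood at 2.238 and 4.789 CPM per kb against 0.0820 and 0.352 for METTL1, 27.3-fold and 13.6-fold higher in replicates 1 and 2. Per kilobase of span the same ratio was 3.38 and 1.68, with 7.51% of the WDR4 span and 60.6% of the METTL1 span exonic. ADAT2 stood above ADAT3 in both libraries on both lengths, by 2.38-fold and 1.47-fold per kb of exon and by 2.22-fold and 1.36-fold per kb of span. TRMT6 and TRMT61A had no stable order per kb of exon, with a ratio of 1.31 in replicate 1 and 0.641 in replicate 2, and per kb of span the ratio was 0.904 and 0.444. The ratio of CTU2 to CTU1 was below 1 per kb of exon (0.936 and 0.743) and above 1 per kb of span (1.91 and 1.52). Whether reads lie in exons or introns cannot be read from 1 count per span. By number alone, all counts of METTL1, ADAT3 and CTU2 could be shared with overlapping genes, described next. ADAT3 lies wholly inside its neighbour, whereas CTU2 shares only 49 bases, 0.549% of its span, with the gene that holds most of those counts.

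Overlap with other genes limited what the counts of many members mean. Of the 42, 25 (59.5%) overlap another listed feature, piRNAs left out, on either strand, against 65.3% of all nuclear protein-coding genes. None overlaps a tRNA feature, against 0.444% of protein-coding genes. The strand rule of the counting is not given in the sources used here. Of 20 features lying wholly inside a member, all 20 had at most the member's count in both libraries, and 11 of the 16 on the other strand had counts.

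For some members the other gene covers most or all of the span. ADAT3 lies wholly inside SCAMP4 on the same strand, which had 75 and 132 counts. ELAC1 shares 99.9% of its span with RP11-729L2.2 on the same strand, which had 57 and 93 counts. TRMT5 lies inside RP11-193F5.1 (175 and 289 counts), and TRMT10B lies inside RP11-613M10.9 (519 and 966 counts), both on the other strand. On that strand TRMT5 also shares 245 bases with SLC38A6 (62 and 76 counts). TRMT10B also shares 47.7% of its span with EXOSC3 (64 and 106 counts) there. PUS3 shares 73.6% of its span with HYLS1 on the other strand, which had 20 and 42 counts against 20 and 37 for PUS3. For these members a count may belong in part or in whole to the neighbour.

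For others a smaller part of the span is shared, and the neighbour held at least 50% of the member's count in at least 1 library. TRMT112 shares 284 bases with ESRRA (36 and 66 counts), and METTL1 shares 516 bases with CYP27B1 (6 and 18 counts) and 1302 with METTL21B (17 and 30). TRMT2A shares 1455 bases with RANBP1 (155 and 269 counts) and 12 with DGCR8 (128 and 265). NSUN6 shares 91 bases with RP11-499P20.2 (80 and 78 counts), and DUS2 shares 1981 with RP11-67A1.2 (55 and 69 counts). In the same way ADAT1 shares 43.6% of its span with RP11-77K12.8 and TRNT1 shares 26.1% with CRBN. Smaller parts are shared by TRMT44 with ACOX3 (7.99%), TRMT61B with SPDYA (3.86%), PUS10 with PEX13 (1.33%) and CTU2 with PIEZO1 (0.549%). When the counts of all overlapping features were taken off, a setting added after the data were seen, 1682 and 2672 counts remained, 67.3% and 68.7% of the members' total. For 13 members, TRMT2A among them, nothing remained in either library, which is a lower bound and not an estimate. The whole count of each feature was taken off, however short its overlap.

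The 17 members without such an overlap include the 5 highest, so the leading counts are shared with no other listed gene, piRNAs left out. They also include TRMT1, TRMT1L, ELP3, TRMT61A, ALKBH8, CTU1 and QTRT1. The 485 piRNA features that overlap a member added little, with at most 2 counts each and 50 and 39 counts in all. No listed feature is named as a numbered pseudogene copy of a member.

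**Figure D3:**
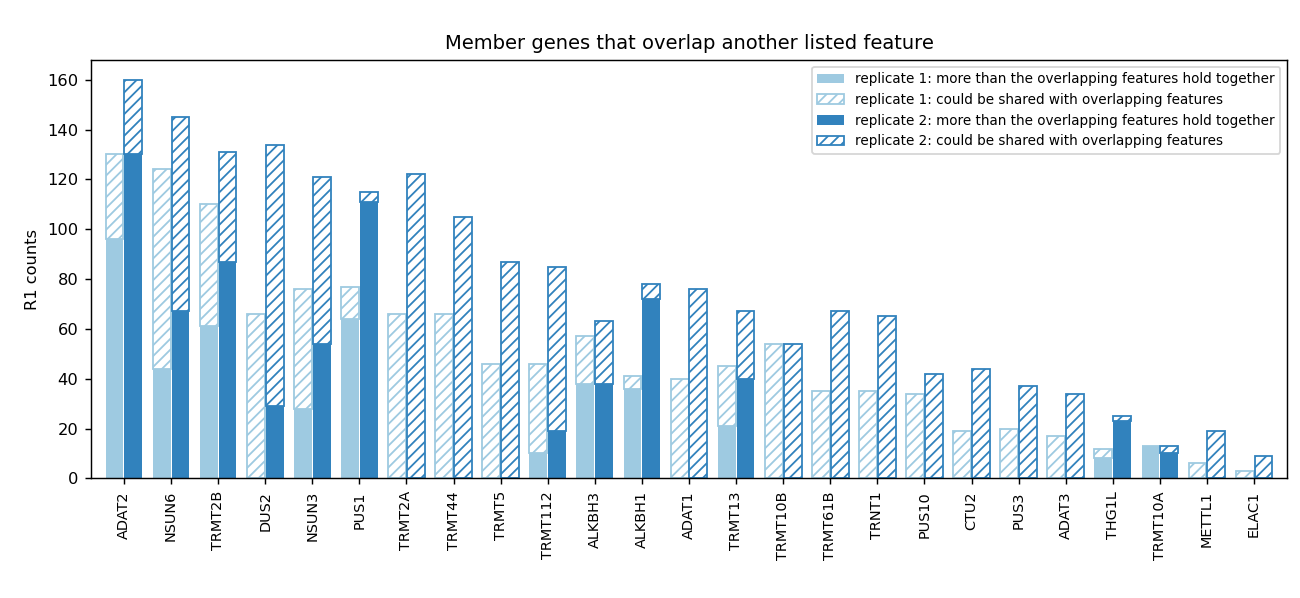
R1 counts of the 25 members that overlap another listed feature, with replicate 1 in light and replicate 2 in dark blue. The solid part exceeds what the overlapping features hold together and the hatched part could be shared with them, all of it for 13 members in both libraries. The size of the overlap is not taken into account.

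The second mate gave nearly as many counts for these genes as the first. R2 held 2163 and 3336 counts of the members, 86.5% and 85.8% of R1, or 86.1% ± 0.514 (SD, n = 2). Over nuclear protein-coding genes that overlap no tRNA feature the sum of R2 was 78.7% and 80.1% of R1, or 79.4% ± 1.01 (SD, n = 2), and the median gene with at least 10 R1 counts stood at 87.9% and 84.6%. The median member, at 87.5% and 85.4%, lay close to that median gene. For tRNA features R2 was 42.7% and 41.5% of R1. Single members ranged from 66.7% to 133% in replicate 1 and from 68.2% to 116% in replicate 2. R2 exceeded R1 for 2 members in replicate 1 and 4 in replicate 2, all with differences of at most 10 counts. No member therefore showed counts in 1 mate only, and the mates are reads of the same fragments and not replicates.

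The 2 libraries were compared gene by gene with an exact two-sided binomial test of each feature's split against the ratio of library sizes scaled by edgeR's TMM factors, with Benjamini-Hochberg adjustment over the 18723 features whose counts averaged 10 or more. This compares 1 library with 1 other, not conditions. No member of 41 tested was called at an adjusted p of 0.05, where 8.8% of all features and 5.27% of nuclear protein-coding genes were. Of all features, 2.29% were called higher and 6.52% lower in replicate 2. The smallest adjusted p of a member was 0.134. At an unadjusted p under 0.05 there were 7 members (17.1%), 1 higher and 6 lower in replicate 2, against 19.1% of all features and 15.9% of protein-coding genes. The test gave 0 called members with DESeq2 size factors as well. With scaling to the library totals it called 39 of the 41, all higher in replicate 2, where 89.3% of protein-coding genes were called. That scaling moves the median protein-coding gene to a log2 ratio of replicate 2 over 1 of 1.11, against 0.01 with TMM.

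**Figure D4:**
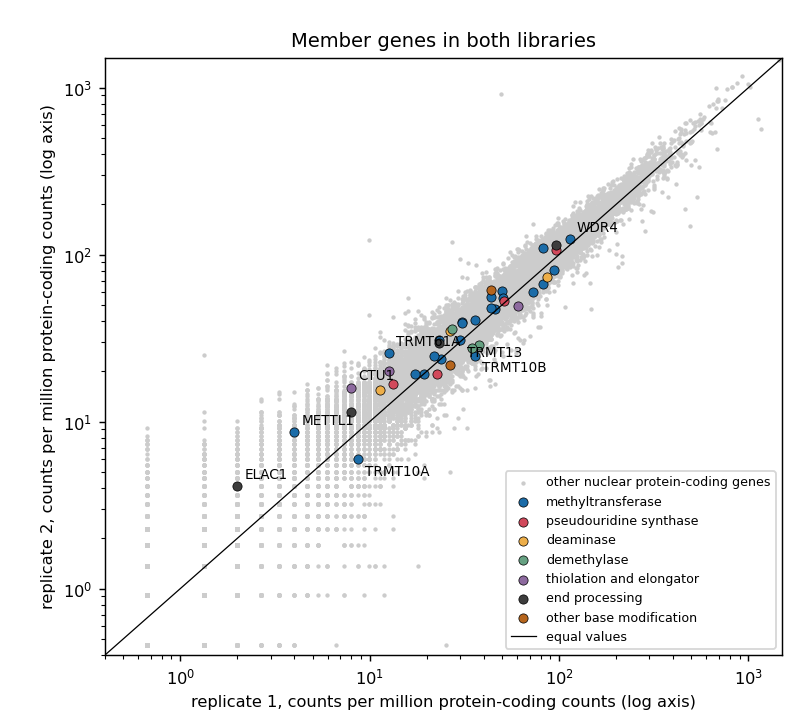
R1 protein-coding CPM of the members (coloured by role) and of other nuclear protein-coding genes without a tRNA overlap (grey) in replicate 1 and replicate 2, on log axes with a line of equal values. The members lie within the grey cloud near the line, with 29 above it and 13 below it. On this scale the median log2 ratio of replicate 2 over 1 was 0.142 for 41 tested members. It was 0.127 for 13207 tested protein-coding genes.

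The balance between libraries varied with gene length. With TMM scaling, the 9 members with spans under 10 kb had log2 ratios (replicate 2 over 1) with a median of 0.26, and 8 of the 9 were above 0. The 16 members of 10 to 30 kb had a median of 0.05 and the 16 longer ones a median of -0.03. Over protein-coding genes the medians were 0.20, 0.09 and -0.05 in the same order, and 1462 of the 2067 under 10 kb were above 0. Across the 41 members Spearman's rho of this ratio was -0.474 with span, and across 13117 protein-coding genes it was -0.273, as a description of genes that share both libraries. TRMT61A had 19 and 56 counts, 12.6 and 25.6 protein-coding CPM, with a log2 ratio of 0.88 (unadjusted exact binomial p = 0.0174). NSUN6 had 82.5 and 66.3 protein-coding CPM with a log2 ratio of -0.43 (unadjusted exact binomial p = 0.0173), and TRMT10B had 35.9 and 24.7 with a log2 ratio of -0.65 (unadjusted exact binomial p = 0.0227). None of these passed the adjustment, with adjusted binomial p-values of 0.134, 0.134 and 0.158 in the order given.

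**Figure D5:**
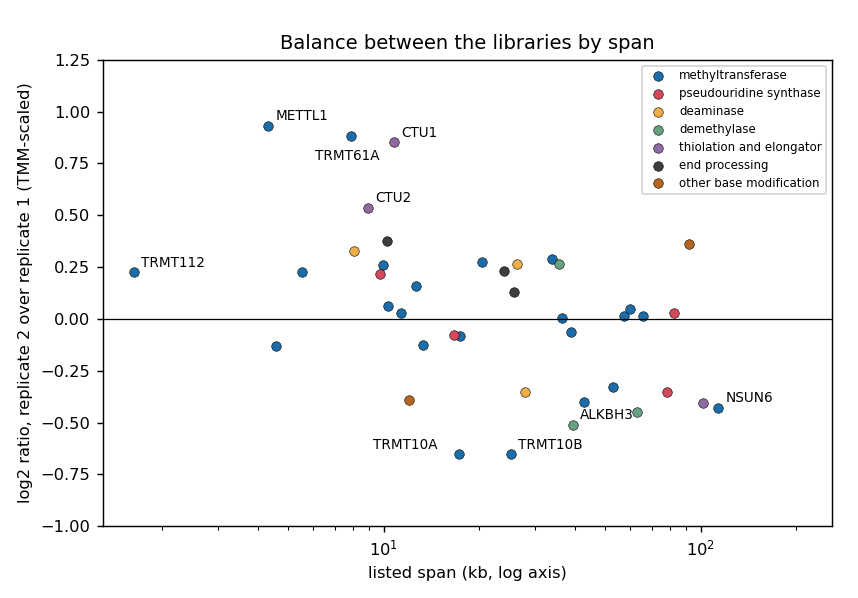
The log2 ratio of replicate 2 over replicate 1 with TMM scaling for the 41 tested members against their listed span in kb on a log axis. The 9 members under 10 kb have a median of 0.26, against -0.03 for the 16 over 30 kb, and 0 members passed the adjusted test.

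The other genes of tRNA maturation were described from a wider list of 71 genes, all found in the tables. Their median was 3.19 CPM, against 2.56 CPM for the members, and 54 of the 71 lay above the protein-coding median, where 50% of all genes do. That median includes genes with few or no counts, and no minimum count was applied to this list. Among the highest were CDKAL1, which methylthiolates adenosine next to the anticodon of lysine tRNA, with 396 and 495 counts over a 698 kb span, the acetyltransferase gene NAT10 with 152 and 286, the wybutosine gene TYW1 with 156 and 226, and ELP2, an Elongator subunit, with 142 and 231. The lowest were RPP40 and RPP21, both genes of ribonuclease P subunits, with 5 and 14 counts and 1 and 1. By kind, the medians were 4.27 CPM for 8 other base modification genes, 4.16 for 8 methyltransferase genes, 3.46 for 8 pseudouridine synthase genes, 3.38 for 13 wobble uridine genes, 2.67 for 20 splicing and end-processing genes and 1.67 for 14 genes of hypermodified purines. No CPM of this list is scaled to length, so these medians rank neither the kinds nor the list against the members. In the binomial test, 3 of 69 tested genes of this list were called higher in replicate 2 (DUS3L with 26 and 90 counts, TRUB2 with 34 and 102, RPUSD3 with 47 and 123) and CDKAL1 was called lower. Of protein-coding genes, 2.37% were called higher and 2.9% lower. These called genes other than CDKAL1 were picked after their values were seen.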

How the data were processed

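Read counts per feature, as raw whole numbers, were deposited by the authors in 4 tables, 1 for each mate of each of the 2 libraries. The build is hg19 (GRCh37), and the tools named are Bowtie2 2.3.5.1 with bedtools 2.24.0, per the submitters' processing notes. Treatment of reads with several matches and of strand is not given in the sources used here. After 13 repeated lines were dropped, 741078 features remained. Gene positions are those of the tables. Exon lengths came from GENCODE release 29 (GRCh38) by gene ID, for 97.5% of nuclear protein-coding genes, and no GRCh38 coordinate is used.

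CPM, Clopper-Pearson intervals and exact binomial tests were computed with Python 3.11.15, numpy 2.4.6, pandas 2.3.3 and scipy 1.17.1, figures with matplotlib 3.10.9, and scaling factors with edgeR 4.0.16 (TMM) and DESeq2 1.42.0 in R 4.3.3. log2 ratios used a pseudocount of 0.5 counts. PCR reads without molecular identifiers are not independent molecules. All 42 members are named by role, in full TRMT13 and the 2 highest and the lowest of each role group. Also named are overlapping features with at least 50% of a member's count, the 5 highest and 2 lowest genes of the wider list except 1 that is not reported here, and a few markers. The members and lists were chosen with earlier results of these data known. No protein sequence was used here.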

Additional observations from a re-analysis of the deposited data

How the results depend on the processing

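Alternative settings gave 40 values of the main results, of which 29 stayed within 1 SD of the libraries (counts within 1.5 times) and 11 moved. The summed and the median CPM moved to 286 and 5.17 in R2, to 1050.2 and 19.1 when tRNA features and features overlapping one were left out of the total, and to 1721 and 31.2 in protein-coding CPM. These follow from the smaller totals. The median was 0.118 per kb of span and 0.744 per kb of exon. Members above the protein-coding median numbered 16 at a minimum mean count of 10, as the genes with fewer counts leave the median. Of 41 or 42 members, 39 were called with scaling to library totals and 7 with the sum of both mates, which counts a fragment's mates as separate reads and calls 17.1% of all features, and 0 with R2, other scalings or other count minimums. Without replicate 1 or 2 the summed CPM was 89.6 to 188.9, the median 1.65 to 3.47, the members above the median 32 to 33 and R2 over R1 85.8% to 86.5%. With n = 2, leaving out a library cannot shift the mean by a whole SD, so this is no sign of stability. Such values are counted among the 29 that stayed and among the 392 described next. Of 392 values of single members and role groups, 172 moved, 151 of them to higher and 21 to lower values. The higher values were 48 in R2, 49 with each of the 2 smaller totals and 5 with the sum of both mates. R2 and the smaller totals rescale every value. All 21 lower values came from taking off the counts of overlapping features. No paired analysis was possible because the libraries form a single group. The binomial test needs both libraries, so it was not run without either. No test of a difference between members was run.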
